A study of Mus musculus with 2 samples.

Results

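The Notch receptors Notch1, Notch2, Notch3 and Notch4, the ligands Jag1, Jag2 and Dll4 and the target genes Hey1, Hey2 and Heyl were followed across cells from mouse mitral leaflets taken at E17.5. These 10 genes were chosen by symbol, and all 10 were found once each among the 32285 genes of both libraries. The mutant embryos were Nfatc1-Cre, Dicer loxp/loxp, that is, both Dicer1 alleles are floxed and a Cre recombinase can delete the floxed stretch, and the control embryos were labelled wild type, with no Cre or loxP allele named for them. Each genotype is 1 library of cells pooled from 3 to 4 hearts, made with a droplet method that reads the 3′ ends of transcripts and counts molecules by unique molecular identifiers (UMIs). There are no replicates, so genotype, pool and library cannot be told apart, no test between genotypes was made, and every interval given is a 95% interval for counting error only.

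Notch receptors are cut after they bind a Jagged or Delta-like ligand on a neighbouring cell, and the freed intracellular part enters the nucleus and, with RBPJ, switches on genes such as those of the Hey family. Hey proteins are repressors of transcription. In the developing heart the pathway is known for its part in the endocardium, in the change of endocardial cells into valve mesenchyme, in arterial identity and in the maturation of mural cells. Nfatc1 marks the valve endocardium, where Nfatc1-Cre is active, and DICER1 cuts microRNA precursors into mature microRNAs, which bind target transcripts through their seed, bases 2 to 8.

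The mutant library held 69475632 UMIs in 8250 barcodes, of which 6190 cells were kept, with a median of 9490.5 UMIs. The control library held 70221728 UMIs in 12793 barcodes, of which 10347 cells were kept, with a median of 5671 UMIs. The pools differed in sex: 42.5% of mutant cells were female-type (a UMI of Xist and none of 4 Y-linked genes), 37.1% male-type and 20.5% open, against 93.5%, 0.01% and 6.51% of control cells. The libraries shared 19 barcodes, 11 of them among kept cells. Cells were grouped by clustering in which the 10 genes and 51 other Notch pathway genes played no part, and a cluster was called "-like" after marker genes of a cell type.

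Of the 6 classes compared, valve endothelial-like cells, led by Plvap and Npr3, numbered 288 mutant and 1208 control cells. Coronary endothelial-like cells, with Gpihbp1 and Fabp4 in the lead, numbered 1730 mutant and 1984 control cells. Arterial endothelial-like cells, led by Cxcl12 and Gja5, numbered 270 and 211, and were shallow, with a median of 3725.5 UMIs in mutant and 3039 in control cells. Mural-like cells, the smooth muscle cells and pericytes led by Rgs5 and Kcnj8, numbered 407 mutant and 455 control cells. Valve interstitial-like cells, led by Matn4 and Prss35, numbered 898 and 2865, and stromal fibroblast-like cells 1412 and 2192. The 3 clusters of the last class were led by Spon2 and Dlk1, by Sfrp2 and Ogn, and by cell cycle genes. The Sfrp2 cluster, of 448 mutant and 900 control cells, also had Angptl7, Dpep1 and Fmo2 among its leading genes. Sfrp2 and Angptl7 are fibrous valve interstitial markers, Dpep1 and Fmo2 stromal fibroblast markers. Its mean log2 level over the median cluster was 2.87 for stromal fibroblast and 2.02 for fibrous valve interstitial markers. The class may thus hold fibrous valve interstitial cells, which limits contrasts with the valve interstitial-like class. Levels are given as CPM, a gene's count scaled to a common total of UMIs per class. They were not divided by transcript length, so a level of one gene set beside that of another compares 3′ UMIs only.

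Dicer1 itself, the targeted gene on chromosome 12, stood at 39.9 CPM in mutant and 90.4 CPM in control valve endothelial-like cells, with a log2 ratio of mutant over control of -1.18 (-1.48 to -0.89). Its log2 ratio was -0.46 in valve interstitial-like, -0.35 in coronary endothelial-like and -0.05 in arterial endothelial-like cells. Which exons are floxed is not given, and a 3′ UMI need not lie in them, so these levels do not check the deletion. Nfatc1, the gene whose regulatory sequence drives the Cre, stood at 158 CPM in mutant and 129 CPM in control valve endothelial-like cells.

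On GRCm38, in the GENCODE M21 annotation, the ligand genes lie at chr2:137081456-137116644 (Jag1, minus strand), chr12:112907819-112929776 (Jag2, minus) and chr2:119325784-119335962 (Dll4, plus). The receptor genes lie at chr2:26457903-26516663 (Notch1, minus), chr3:98013527-98150361 (Notch2, plus), chr17:32120820-32166852 (Notch3, minus) and chr17:34564268-34588503 (Notch4, plus). The target genes lie at chr3:8663359-8667256 (Hey1, minus), chr10:30832359-30842801 (Hey2, minus) and chr4:123233556-123249875 (Heyl, plus).

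Sequences are shown first for the sites at which the 10 transcripts could pair with microRNAs, whose maturation needs DICER1. The levels of the microRNAs were not measured. Of 8 microRNA seeds searched in the 3′ UTRs of GENCODE M21, miR-34a-5p and miR-30a-5p had sites in the most members. The capitals mark the seed in each RefSeq microRNA (GRCm38.p6), written 5′ to 3′:
miR-34a-5p: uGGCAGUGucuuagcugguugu
miR-30a-5p: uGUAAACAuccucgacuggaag
The site of miR-34a-5p, CACTGCC, lay in the 3′ UTRs of 4 of the 10 members, Notch1, Notch2, Jag1 and Heyl, and in 14.27% of 21020 3′ UTRs of all genes. Notch1 has 3 such sites, shown with the site in capitals, at positions 187, 458 and 800 of its 3′ UTR of 1628 bases, and Jag1 has 1, at position 1347 of 1568:
Notch1 at 187: tttccacagaaaCACTGCCttttta
Notch1 at 458: ctcccccacactCACTGCCcctccc
Notch1 at 800: tcctagagaaaaCACTGCCtggact
Jag1 at 1347: tgccgtagagtaCACTGCCtgcctt
The site of miR-30a-5p, TGTTTAC, lay in Jag2, Dll4 and Heyl, and in 13.78% of all 3′ UTRs. Dll4 has it at position 59 and Jag2 at position 334:
Dll4 at 59: ttccttctgcatTGTTTACattgca
Jag2 at 334: acaggccgtcgcTGTTTACagaatc
The 3′ UTR of Hey2, 1377 bases long, held none of the 8 sites. A match of letters is a description and not a shown site.

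Within the 6 classes compared, Hey2 and Jag1 alone of the 10 genes were 1.5-fold or more apart between the libraries at a mean of at least 10 CPM, both in valve endothelial-like cells and in opposite directions. Of the 7 members measured at that level in these cells, 1 was higher in the mutant library, beside 7.6% of all 8635 genes measured, and 1 was lower, beside 4.9%. None of the 6 members measured in coronary endothelial-like cells lay 1.5-fold apart, where 0.792% of all genes did, and none of the 8 in arterial endothelial-like cells, where 14.9% did. The share of all genes apart was 4.25% in mural-like, 4.66% in valve interstitial-like and 0.901% in stromal fibroblast-like cells, and again none of the 7 members measured in each of these classes was among them. Over the 6 classes that makes 2 of 42 pairs of member and class, and counts this close to the backgrounds are not read as a result about the members as a set. Among the other named classes, Hey1 in lymphatic endothelial-like cells passed the same threshold on 1 mutant and 5 control UMIs, in 24 and 40 cells, with a counting interval that includes 0. Unnamed clusters are not in this count. Notch3 passed the threshold in unnamed cells led by Meg3 and Rian, and Notch4 in unnamed cells of a finer clustering, both described at the end.

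**Figure D1:**
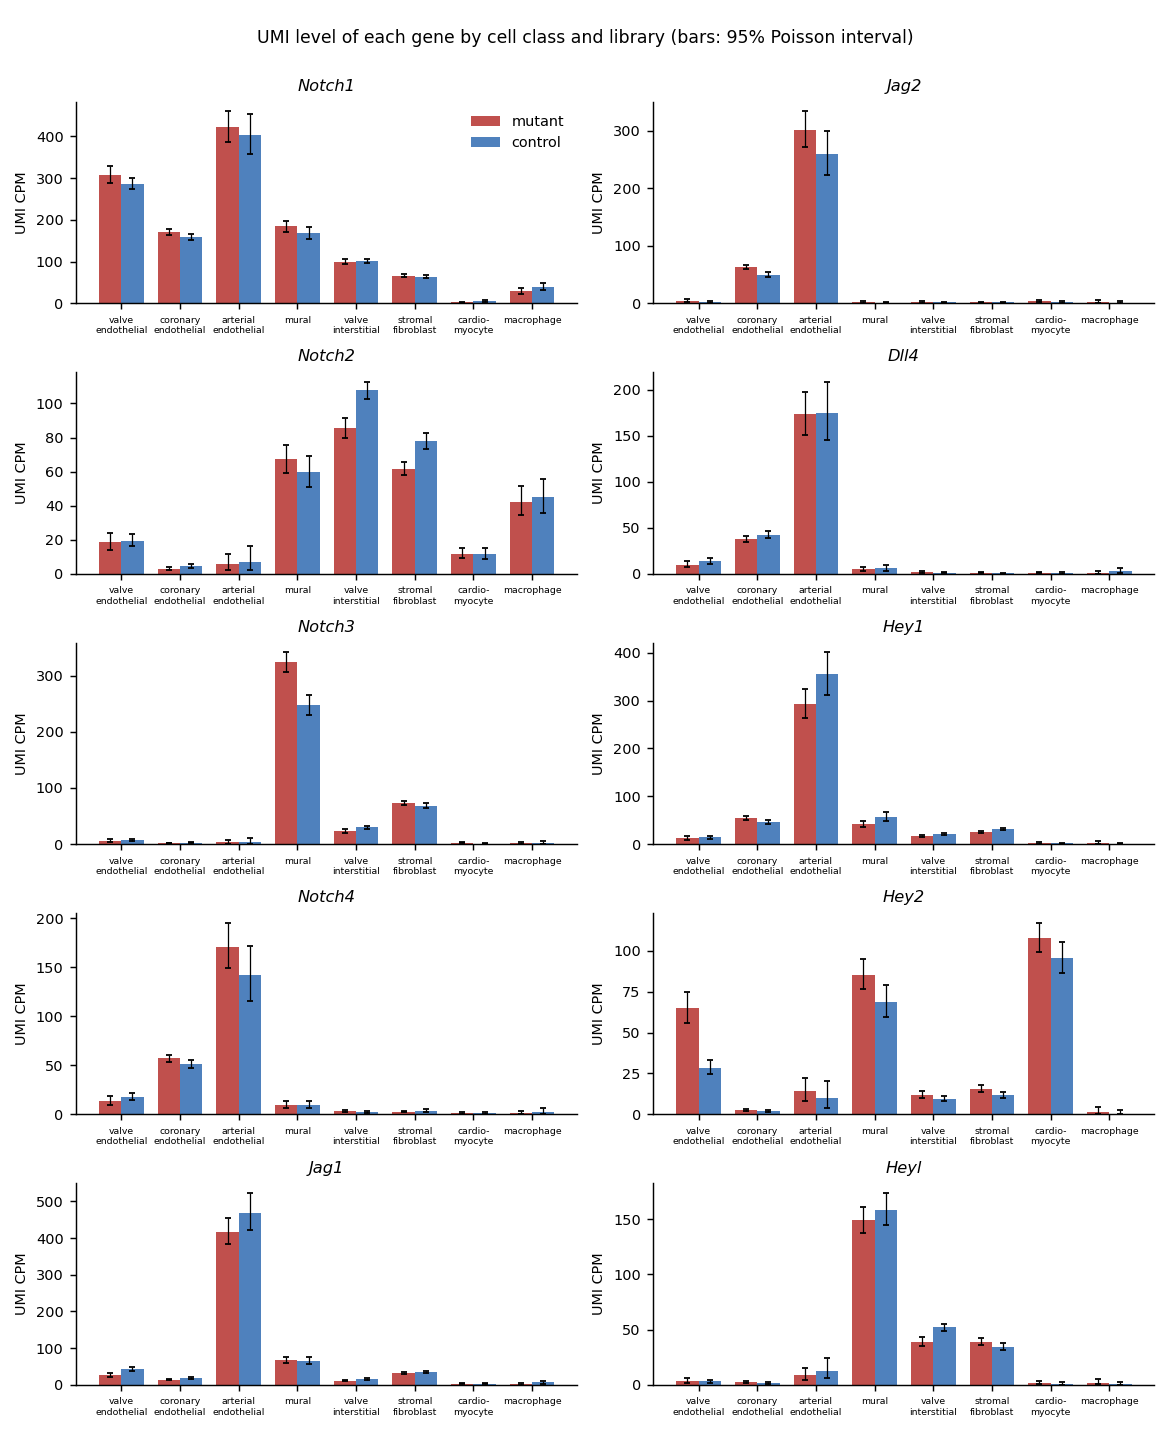
Levels of the 10 genes in UMI CPM (linear axes from 0) in 8 cell classes of the mutant library (red) and the control library (blue), with error bars for the 95% Poisson interval of the count. Jag1, Jag2, Dll4, Notch4 and Hey1 stand highest in arterial endothelial-like cells in both libraries, Notch3 and Heyl in mural-like cells and Hey2 in cardiomyocyte-like cells.

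Among the ligands, Jag1, a Jagged ligand whose loss in the mouse causes vascular defects, was highest in arterial endothelial-like cells, with 418 CPM in the mutant and 470 CPM in the control library. Mural-like cells followed with 68.5 and 65.0 CPM. Next came valve endothelial-like cells with 25.9 CPM in the mutant and 43.3 CPM in the control library, and stromal fibroblast-like cells with 31.3 and 35.0 CPM. These last classes overlapped in their counting intervals in the mutant library, whereas in the control library the valve endothelial-like level lay above. Coronary endothelial-like cells, with 14.3 and 17.8 CPM, and valve interstitial-like cells, with 11.7 and 15.7 CPM, overlapped in both libraries.

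In valve endothelial-like cells the log2 ratio of Jag1 was -0.73 (-1.12 to -0.37), from 78 mutant and 282 control UMIs. It was -0.42 (-0.75 to -0.11) in valve interstitial-like and -0.31 (-0.59 to -0.03) in coronary endothelial-like cells, both below 1.5-fold, and 0.07 in mural-like cells. In valve interstitial-like cells it passed 1.5-fold under 2 alternatives, at -0.76 with a stricter cell filter and at -0.68 with female-type cells alone, where Jag1 stood at 9.73 CPM in mutant and 15.6 CPM in control cells. Of the 2 valve interstitial-like clusters, the cycling one held 10.5 CPM in mutant and 22.4 CPM in control cells, and the other 12.5 and 13.4 CPM. Split by sex type, Jag1 in valve endothelial-like cells stood at 28.6 CPM in 153 female-type and 24.6 CPM in 105 male-type mutant cells, against 42.9 CPM in 1169 female-type control cells. With female-type cells alone the log2 ratio was -0.57, and -0.53 where each cell's class came from its own marker counts, both short of 1.5-fold, and it was -0.51 with no doublet removal, where the class held 122 mutant cells. The share of these cells with a Jag1 UMI was 20.1% in mutant and 15.1% in control cells. In a random draw that thinned each cell to 2000 UMIs it was 7.55% and 7.18%, which leaves out 10 mutant and 52 control cells. Averaged over all such draws, Jag1 stood at 25.9 CPM in mutant and 41.9 CPM in control cells, a log2 ratio of -0.65. No order is read from the shares, since they go against the CPM and the thinned ones rest on that draw alone.

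Jag2, the second Jagged ligand, and Dll4, the Delta-like ligand of arterial and sprouting endothelium, were highest in arterial and coronary endothelial-like cells. Jag2 stood at 302 and 259 CPM in mutant and control arterial endothelial-like cells and at 62.6 and 49.6 CPM in coronary endothelial-like cells, and did not pass 4 CPM in the other 4 classes. Dll4 stood at 173 and 175 CPM in mutant and control arterial endothelial-like cells and at 37.4 and 42.2 CPM in coronary ones. In valve endothelial-like cells Dll4 had 9.97 CPM in the mutant and 13.7 CPM in the control library, a log2 ratio of -0.44 whose interval of -1.10 to 0.16 includes 0. That ratio lay between -1.57 and -0.25 under the alternatives, past 1.5-fold with no doublet removal and, at -0.73, where each cell's class came from its own marker counts. Jag2 was thus the ligand with most UMIs in coronary endothelial-like cells, at 54.8% of ligand UMIs in the mutant and 45.3% in the control library, and Jag1 in every other class compared. The log2 ratio of Jag2 in coronary endothelial-like cells was 0.34 (0.18 to 0.49) and that of Dll4 -0.17 (-0.35 to 0.003), both below 1.5-fold.

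**Figure D2:**
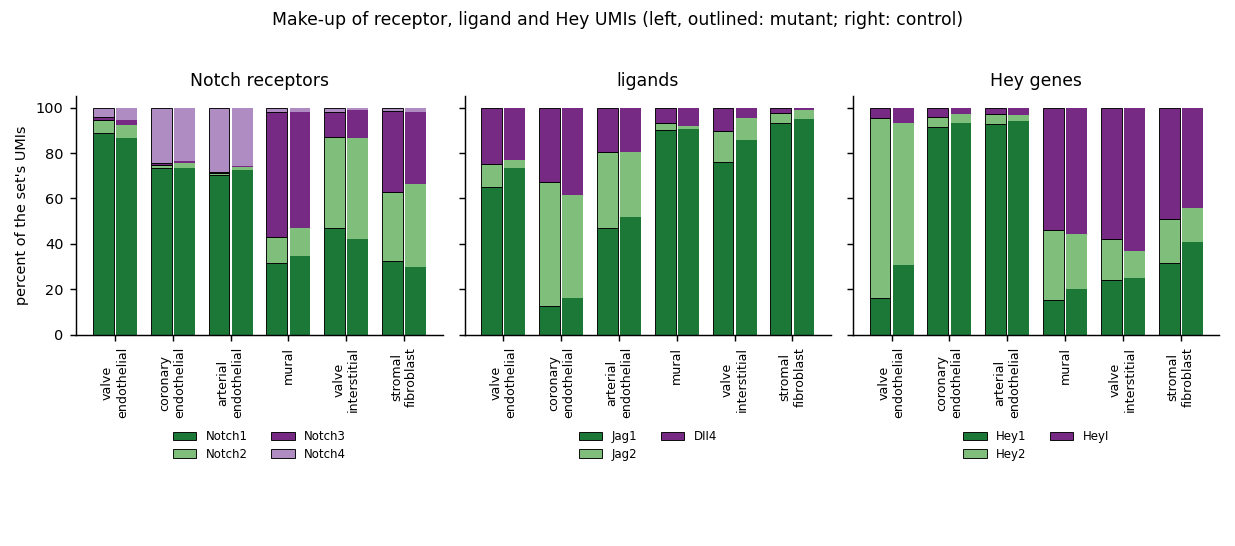
Make-up of the UMIs of the 4 receptors, the 3 ligands and the 3 Hey genes in 6 cell classes, in percent of the UMIs of each set, with the mutant library as the outlined bar on the left of each pair and the control library on the right. Notch1 makes up 89.0% of receptor UMIs in mutant and 86.6% in control valve endothelial-like cells, and Hey2 makes up 79.6% and 62.6% of their Hey UMIs.

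Among the receptors, Notch1, the main Notch receptor of the endocardium, was the only receptor at 10 CPM or more in all 6 classes and both libraries. It stood at 423 CPM in mutant and 404 CPM in control arterial endothelial-like cells and at 308 and 286 CPM in valve endothelial-like cells. Mural-like cells, with 184 and 168 CPM, and coronary endothelial-like cells, with 171 and 159 CPM, overlapped in each library. Valve interstitial-like cells held 99.1 and 101 CPM and stromal fibroblast-like cells 66.3 and 64.0 CPM, apart from each other and from the classes above. After thinning to 2000 UMIs in a random draw, 49.3% of mutant and 44.5% of control valve endothelial-like cells had a Notch1 UMI, against 0.590% and 1.40% of cardiomyocyte-like cells. The mutant-to-control log2 ratio of Notch1 lay between -0.03 and 0.13 in the 6 classes. Whether the miR-34a-5p sites of its transcript act in these cells was not tested.

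Notch4, a receptor known from endothelium, stood at 171 CPM in mutant and 142 CPM in control arterial endothelial-like cells. Coronary endothelial-like cells held 57.2 and 51.0 CPM, valve endothelial-like cells 14.0 and 18.3 CPM, and mural-like cells 9.82 and 9.34 CPM. Notch4 made up 24.6% of receptor UMIs in mutant and 23.5% in control coronary endothelial-like cells, and 4.03% and 5.53% in valve endothelial-like cells. None of its ratios in the 6 classes compared reached 1.5-fold.

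Notch3, the receptor of vascular smooth muscle cells and pericytes, stood at 324 CPM in mutant and 247 CPM in control mural-like cells, at 73.0 and 68.0 CPM in stromal fibroblast-like and at 23.4 and 29.7 CPM in valve interstitial-like cells. Its log2 ratio of 0.39 (0.25 to 0.52) in mural-like cells was the largest of the receptors there and below 1.5-fold, and it lay between 0.36 and 0.50 under all 12 alternatives. The summed level of the 11 mural markers differed in the same direction, at 6856 CPM in mutant and 5744 CPM in control mural-like cells, and its part in the result was not tested. In valve interstitial-like cells the log2 ratio of Notch3 was -0.34 (-0.57 to -0.12), and it turned to between 0.23 and 0.29 under 3 alternatives, with no doublet removal, with the Notch genes left in the clustering and with genes 2-fold apart left out of it.

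Notch2 was highest in valve interstitial-like cells, with 85.4 CPM in the mutant and 108 CPM in the control library. Stromal fibroblast-like cells held 61.5 and 77.9 CPM, mural-like cells 67.2 and 59.5 CPM and macrophage-like cells 42.1 and 45.0 CPM. In valve endothelial-like cells it stood at 18.6 and 19.3 CPM, and in coronary endothelial-like cells at 2.84 and 4.25 CPM. The log2 ratio was -0.34 both in valve interstitial-like (-0.45 to -0.22) and in stromal fibroblast-like cells (-0.46 to -0.22), below 1.5-fold in each.

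Receptor make-up thus differed between the classes in both libraries, with the limit that the stromal fibroblast-like class includes the Sfrp2 cluster. Notch3 made up 55.3% of receptor UMIs in mutant and 51.1% in control mural-like cells, and Notch1 31.5% and 34.7%. In stromal fibroblast-like cells Notch1, Notch2 and Notch3 had like shares, at 32.5%, 30.2% and 35.8% in the mutant and 29.9%, 36.4% and 31.8% in the control library. In valve interstitial-like cells Notch1 and Notch2 led, at 46.8% and 40.4% in the mutant and 41.9% and 44.8% in the control library.

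Among the Hey genes, Hey2, a repressor best known from ventricular muscle and arteries, was highest in cardiomyocyte-like cells, with 108 CPM in the mutant and 95.5 CPM in the control library, and next in mural-like cells, with 85.1 and 68.5 CPM. Valve endothelial-like cells followed, with 64.8 CPM in the mutant and 28.5 CPM in the control library. Stromal fibroblast-like cells held 15.6 and 11.6 CPM, valve interstitial-like cells 12.1 and 9.70 CPM, arterial endothelial-like cells 14.2 and 9.82 CPM and coronary endothelial-like cells 2.59 and 1.95 CPM. In both libraries Hey2 had the most UMIs of the 3 Hey genes in valve endothelial-like cells and was at its lowest, among the 6 classes compared, in coronary endothelial-like cells.

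The log2 ratio of Hey2 in valve endothelial-like cells was 1.18 (0.89 to 1.48), from 195 mutant and 186 control UMIs, the largest among the 42 pairs. Hey2 UMIs were found in 25.7% (20.7 to 31.1) of mutant and 9.35% (7.77 to 11.1) of control cells of this class. In a random draw that thinned each cell to 2000 UMIs the shares were 7.19% (4.45 to 10.9) and 3.55% (2.56 to 4.78). Macrophage-like cells, at median depths of 9797 and 4725.5 UMIs against 10296.5 and 5196.5 in the valve endothelial-like cells, gave 0.837% and 0.279% before thinning. Thinned intervals of the mutant and control cells overlap narrowly. The log2 ratio of thinned counts, averaged over all draws, was 1.06.

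Hey2 differed in the same direction in mutant cells of either sex type. It stood at 69.5 CPM in female-type and 60.2 CPM in male-type mutant cells of this class, which come from different embryos, against 28.5 CPM in female-type control cells. Both sex types share the mutant library and the same control, so the split does not part genotype from pool or library. At a finer clustering the class split in 2. The cells led by Npr3 and Plvap held 23.9 CPM of Hey2 in the mutant and 10.0 CPM in the control library, and those led by Wnt4 and Pthlh held 133 and 63.0 CPM. The log2 ratios were 1.25 (0.62 to 1.90) in the first and 1.08 (0.74 to 1.42) in the second, and the second made up 30.3% of mutant and 32.5% of control cells of the class. Jag1 was also higher in the Wnt4 cells, with 38.2 CPM in the mutant and 71.3 CPM in the control library, against 18.6 and 27.7 CPM in the Npr3 cells. Dll4 had the opposite pattern, with 15.4 and 19.8 CPM in the Npr3 cells and 1 mutant and 6 control UMIs in the Wnt4 cells.

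**Figure D3:**
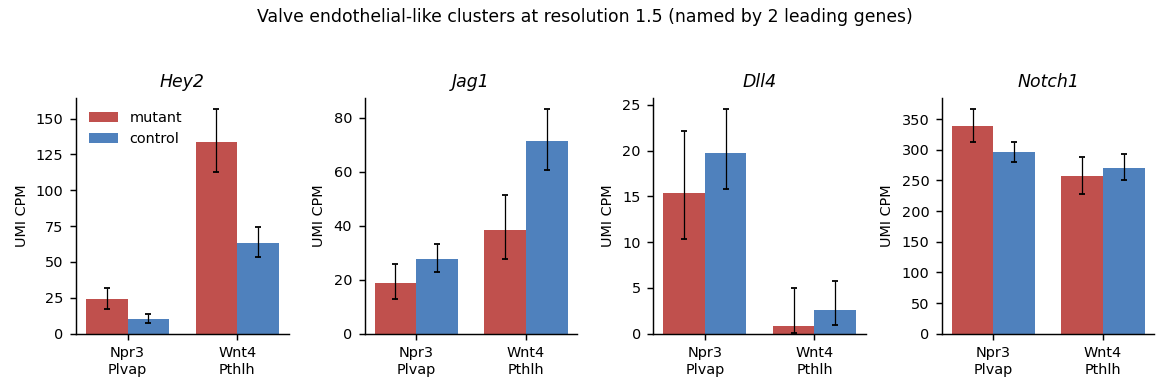
Levels of Hey2, Jag1, Dll4 and Notch1 in UMI CPM (linear axes from 0) in the valve endothelial-like clusters found at resolution 1.5, each named by 2 leading genes, in the mutant library (red, left) and the control library (blue, right), with 95% Poisson intervals. Hey2 is higher in mutant than in control cells of both clusters, at 23.9 and 10.0 CPM in the first and 133 and 63.0 CPM in the second, and Jag1 is lower in both.

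Marker levels also differed between the libraries in this class. The 10 valve endothelial markers summed to 3081 CPM in mutant and 2455 CPM in control cells, with 9 of them higher in the mutant library, among them Wnt9b at 90.7 and 14.4 CPM. The 10 interstitial and stromal markers summed to 1485 and 2341 CPM with none at 0, and 8 of them were lower in the mutant library, among them Postn at 264 and 695 CPM and Dcn at 74.4 and 313 CPM. The 6 cartilage-type markers summed to 822 and 191 CPM, of which Hapln1 gave 808 and 159 CPM, while 4 of the 6 were lower in the mutant library, such as Prss35 at 7.98 and 17.0 CPM. The 8 cardiomyocyte markers summed to 542 and 516 CPM, with 5 higher and 3 lower, and to 47224 and 45056 CPM in cardiomyocyte-like cells. The part of these lists in the results for Hey2 and Jag1 was not tested.

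The promoter of Hey2 is shown because it was the member with the largest ratio and, of the 8 members in the RefSeq promoter table, the only one with the core letters of an RBPJ motif. The other Hey genes, Hey1 and Heyl, are not in that table, so their promoters were not searched. The window runs from 250 bases before to 50 bases after the annotated start, at chr10:30842734-30843033 on the minus strand of GRCm38.p6, and the capitals mark TGGGAA or its reverse complement TTCCCA, which begin at -3 and -207:
Hey2 promoter: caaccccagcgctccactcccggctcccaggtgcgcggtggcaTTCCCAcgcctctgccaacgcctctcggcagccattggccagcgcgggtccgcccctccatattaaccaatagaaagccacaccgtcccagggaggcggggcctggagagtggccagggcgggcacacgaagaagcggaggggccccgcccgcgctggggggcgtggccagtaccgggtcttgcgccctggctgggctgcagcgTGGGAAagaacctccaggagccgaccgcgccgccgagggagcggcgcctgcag
On either strand TGGGAA occurs in 25.56% of 32851 windows of this length, and the longer GTGGGAA, which both Hey2 matches extend to, in 6.383%. The GATA letters AGATAA and TGATAA, searched on both strands, were found in none of the 8 windows and in 18.61% of all, and the E-box CANNTG in 3 of 8 and in 72.31% of all.

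Hey1, the Hey gene of arterial endothelium, stood at 293 CPM in mutant and 355 CPM in control arterial endothelial-like cells, with a log2 ratio of -0.28 (-0.51 to -0.04) that came out between 0.00 and 0.11 under 4 alternatives. Coronary endothelial-like cells held 54.4 and 45.3 CPM, with a log2 ratio of 0.26 (0.10 to 0.42), and mural-like cells 42.3 and 56.7 CPM, with -0.42 (-0.74 to -0.10). In valve endothelial-like cells Hey1 stood at 13.0 and 14.0 CPM. Hey1 made up 91.5% of Hey UMIs in mutant and 93.1% in control coronary endothelial-like cells but 15.9% and 30.6% in valve endothelial-like cells. All these ratios of Hey1 were below 1.5-fold, and their sign differed between classes. With no doublet removal Hey1 passed it in valve endothelial-like cells, at -0.78, and in stromal fibroblast-like cells, at -0.67. In arterial endothelial-like cells other marker lists differed between the libraries too: the 4 mast cell markers summed to 70.2 CPM in mutant and 359 CPM in control cells, with 2 and 1 of them at 0, and the 10 valve endothelial markers to 356 and 585 CPM, with 3 and 1 at 0. Their part in the arterial ratios of Hey1 and the other members was not tested.

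Heyl, the Hey gene of mural cells, stood at 149 CPM in mutant and 158 CPM in control mural-like cells. Stromal fibroblast-like cells held 39.2 and 34.5 CPM and valve interstitial-like cells 39.0 and 52.0 CPM, so that the classes overlapped in the mutant library and were apart in the control library. The log2 ratio in valve interstitial-like cells was -0.42 (-0.59 to -0.24), below 1.5-fold, and -0.72 with male-type mutant against female-type control cells. Heyl was low in the endothelial classes, with 3.66 and 3.07 CPM in valve, 2.46 and 1.42 CPM in coronary and 8.67 and 12.6 CPM in arterial endothelial-like cells.

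**Figure D4:**
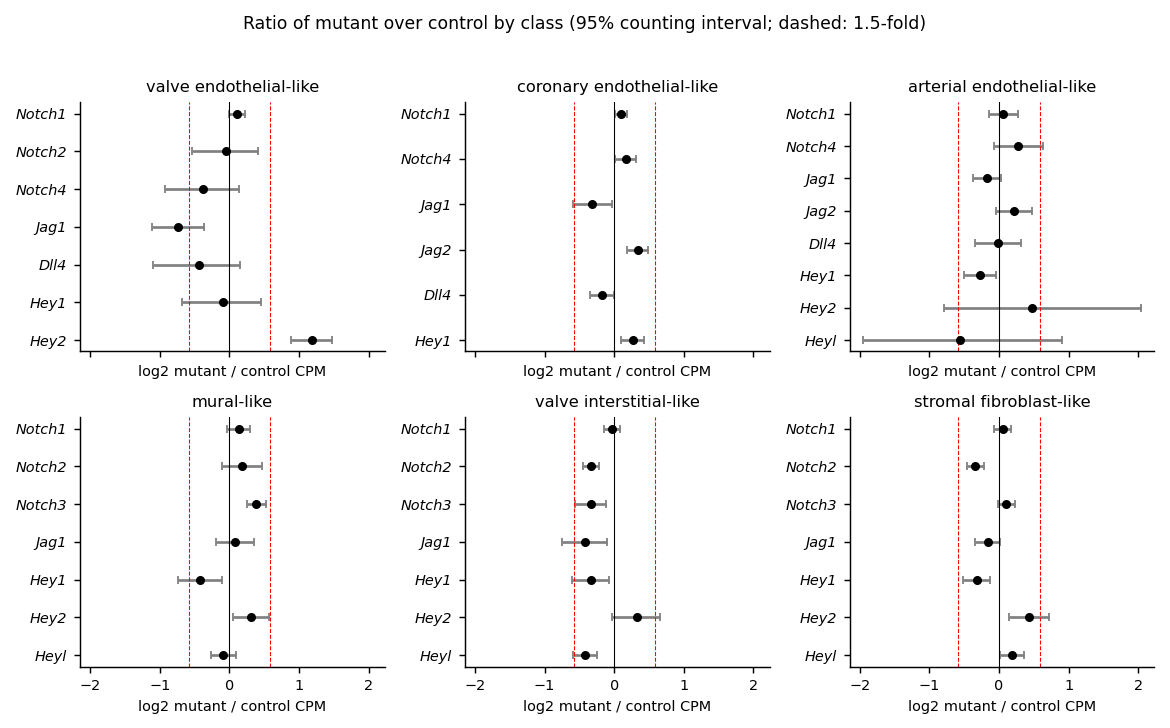
Log2 ratio of mutant over control CPM of each member with a mean of at least 10 CPM in 6 cell classes, with the 95% counting interval as a horizontal bar. The dashed lines mark 1.5-fold in either direction, and Hey2 at 1.18 and Jag1 at -0.73 in valve endothelial-like cells are the 2 points beyond them.

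Dll4, Hey1, Notch1, Notch4 and Jag2 were ordered alike over 3 clusters chosen from those of the coronary and arterial endothelium. At the finer clustering, coronary endothelial-like cells led by Rgcc and Fabp4 held 23.1 CPM of Dll4 in the mutant and 23.1 CPM in the control library. Those led by Igfbp3 and Kcne3 held 83.5 and 90.5 CPM, and arterial endothelial-like cells 152 and 160 CPM. Hey1 followed the same order, with 15.7 and 15.7 CPM, 144 and 118 CPM, and 308 and 324 CPM in these 3 clusters. Notch1 did too, with 105 and 114 CPM, 226 and 218 CPM, and 402 and 380 CPM. Notch4 stood at 50.5 and 34.4 CPM, 92.0 and 76.6 CPM, and 142 and 137 CPM, and Jag2 at 52.0 and 36.3 CPM, 70.2 and 60.3 CPM, and 247 and 235 CPM. Among the other coronary clusters Jag2 did not keep this order, with 74.4 and 73.8 CPM in cells led by Ly6c1. Jag1 differed from Dll4 in that it stayed at 16.9 CPM in mutant and 19.1 CPM in control Igfbp3 cells and reached 338 and 372 CPM in arterial cells alone. The order of these clusters by Dll4 is a description, since the clusters were ranked by it. Levels of Hey1, Notch1 and Notch4 in the Ly6c1 and cycling clusters are not given here, so no order over all coronary clusters is read.

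**Figure D5:**
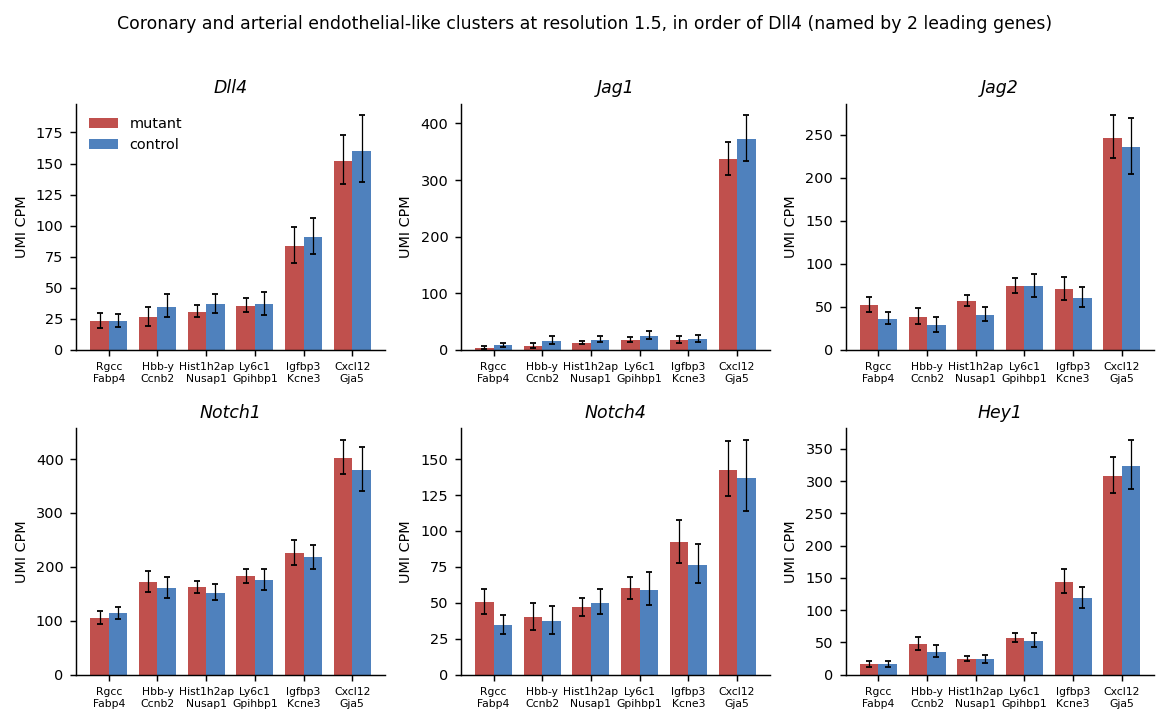
Levels of 6 members in UMI CPM (linear axes from 0) in the coronary and arterial endothelial-like clusters found at resolution 1.5, ranked by Dll4 and named by 2 leading genes, in the mutant library (red, left) and the control library (blue, right), with 95% Poisson intervals. Dll4 ranges from 23.1 to 152 CPM in the mutant and from 23.1 to 160 CPM in the control library, and Jag1 is above 100 CPM in the rightmost cluster alone, the arterial one.

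The coronary clusters differed in their shares between the libraries. Cells led by Ly6c1 made up 34.5% of mutant and 20.6% of control coronary endothelial-like cells, cells led by Rgcc 18.7% and 31.5%, and cells led by Igfbp3 10.1% and 14.4%. Beside the class ratio of 0.26 for Hey1, its log2 ratio was 0.12 in the Ly6c1, 0.01 in the Rgcc, 0.28 in the Igfbp3 and 0.06 and 0.43 in the 2 cycling clusters. Beside the class ratio of 0.34 for Jag2, its log2 ratio was 0.01, 0.52, 0.22, 0.48 and 0.42 in the same clusters. The part of the cluster shares in the class ratios was not tested.

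The other 51 Notch pathway genes were all found in the files, and between 32 and 38 of them were measured in a class. In valve endothelial-like cells 2 of 36 were higher and 0 lower by 1.5-fold or more, beside 7.6% and 4.9% of all genes, and their median log2 ratio was 0.03 beside 0.05 over all genes. The 2 were Adam10, the protease that makes the first ligand-dependent cut in the receptor, at 380 CPM in the mutant and 251 CPM in the control library, and Dtx2, a ubiquitin ligase of the Deltex family, at 14.95 and 8.44 CPM. In arterial endothelial-like cells 2 of 38 were higher and 1 lower, where 14.9% of all genes were apart in either direction. The lower one was Fbxw7, part of a ubiquitin ligase that marks the cut receptor for breakdown, at 91.4 CPM in the mutant and 149 CPM in the control library, and the higher ones were Neurl3, at 22.1 and 12.6 CPM, and Dtx3, at 32.3 and 19.6 CPM. In mural-like cells, where 4.25% of all genes were apart, 1 of 37 was higher, Psen2, a catalytic subunit of the secretase that frees the intracellular part, at 32.0 and 19.4 CPM. None of 36 in coronary endothelial-like, 35 in valve interstitial-like and 32 in stromal fibroblast-like cells was 1.5-fold apart. Counts at or near the shares of all genes are not read as a result about the pathway.

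Rbpj, the DNA-binding partner of the cut receptor, stood at 46.9 CPM in both mutant and control valve endothelial-like cells. Hes1, a target that encodes a repressor, stood at 118 CPM in mutant and 101 CPM in control valve endothelial-like cells, with a log2 ratio of 0.22 (0.03 to 0.41). Nrarp, a target that encodes a feedback inhibitor, stood at 25.9 and 17.49 CPM there, a log2 ratio of 0.57 (0.13 to 0.996), short of 1.5-fold. Nrarp was higher in coronary endothelial-like cells, at 97.1 and 104 CPM, and in arterial ones, at 169 and 144 CPM. Of the glycosyltransferases that tune the response to ligands, Mfng stood at 18.9 and 18.7 CPM in valve, 110 and 102 CPM in coronary and 99.3 and 130 CPM in arterial endothelial-like cells, and Lfng at 4.32 and 3.22, 14.5 and 13.2, and 22.1 and 22.4 CPM in the same classes.

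Across the 21 clusters of both libraries summed together, Jag2 and Dll4 had the most alike levels, with a Pearson r of 0.93 on log2(CPM + 10), followed by Notch4 and Jag2 at 0.93, Notch3 and Heyl at 0.91 and Notch4 and Dll4 at 0.90. These r values describe clusters that share 2 libraries, and no p is given. Among 7041 other genes, Prnd, Abcb1a and Btnl9 were the most like Jag2, with r between 0.94 and 0.96, and Pcdh1, Abcb1a and Prnd the most like Notch4. St8sia6, Btnl9 and Prnd were the most like Dll4, at 0.92 to 0.94. Fap, Gpc6 and Pdgfrb were the most like Notch3, at 0.95 to 0.97, and Pcdh18, Naalad2 and Cox4i2 the most like Heyl. Likeness was lowest for Hey2, where Ppp2r3a, Hrc and Rbpms2 led at 0.78 to 0.82. For Jag1, Atp8b1, Arl15 and Vegfc led at 0.83 to 0.86, and for Hey1, Tpgs2, Sept4 and Oaz2 at 0.83 to 0.87. Notch1 was closest to Shoc2, Taok2 and Adcy4, at 0.87 to 0.90, and Notch2 to Lrp1, Specc1 and Tiparp, at 0.85 to 0.91. With a Spearman correlation in place of Pearson, at most 2 of the 3 genes named for a member stayed among its first 3, and none did for 6 members.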

How the data were processed

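Cells of each genotype were sorted for viability (7-AAD) and made into 1 droplet 3′ library. The values deposited by the authors are whole-number UMI counts per gene and barcode, not normalized, produced by Cell Ranger 5.0.0 with the mm10 genome, per the submitters' processing notes. Annotation release and counting options are not given in the sources used here, so reads shared with overlapping genes cannot be placed.

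Barcodes were kept at a minimum of 500 genes and 1000 UMIs and with less than 20% of UMIs from mitochondrial genes, which removed 16.8% of mutant and 11.4% of control barcodes by the last criterion. Scrublet in scanpy 1.11.5 marked 3.33% of mutant and 3.83% of control cells as doublets, which were removed, where loading predicts 5.12% and 8.61%. Counts were scaled to 10000 per cell and logged, and 2000 variable genes without the 10 members and the 51 other pathway genes, 30 principal components and 15 neighbours were clustered with leidenalg 0.10.2 at resolution 0.8. A cluster was named where at least 3 markers of a type were detected (in at least 10% of cells, at 1.5 times the median cluster) and its 10 leading genes did not go against the name; this scoring was set after seeing the data, and 131 markers were used. Classes rebuilt in this way may differ from the study's.

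UMIs were summed per class and library. Ratios had 0.5 counts added, with exact conditional Poisson intervals; shares have exact Clopper-Pearson intervals. UMIs are molecules, but cells within a pool are not replicates, so intervals cover counting error only. A gene was measured at a mean of at least 10 CPM and called apart at 1.5-fold. The counting steps were tested on simulated data. Sequences are RefSeq's for GRCm38.p6, with 8 of 10 members matched in the promoter table, and 3′ UTRs came from GENCODE M21.

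Named were all members, Dicer1, Nfatc1, up to 4 other pathway genes 1.5-fold apart per class, 5 fixed pathway genes in endothelial classes, and the 3 genes most like each member. Postn, Dcn, Hapln1, Prss35 and Wnt9b were named after their values were seen. The members and lists were chosen with earlier results of these data known. Alternatives changed the cell filter, doublet removal, resolution, genes clustered, class rule, depth, sex type, centring and added count.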

Additional observations from a re-analysis of the deposited data

How the results depend on the processing

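Over 42 pairs of member and class and 12 alternatives, 462 values stayed within the counting interval of the main value and 42 did not. Hey2 in valve endothelial-like cells stayed past 1.5-fold under 12 of 12, between 1.04 and 1.29 on the log2 scale, and Jag1 under 9 of 12, between -0.82 and -0.51. Adding 0 or 1 counts and centring on the class median reuse the same cells and counts. They gave 1.18, 1.18 and 1.10 for Hey2 and -0.74, -0.73 and -0.82 for Jag1. These settings could hardly move either pair and add little to the tallies. Pairs higher by 1.5-fold numbered 1, and 2 under the strict filter, at resolution 1.5, with genes 2-fold apart left out of the clustering (each adding Hey2 in stromal fibroblast-like cells, at 0.82, 0.65 and 0.73) and with female-type cells only (adding Hey2 in arterial endothelial-like cells, at 1.23). Pairs lower numbered 1, and 2 under the strict filter (Jag1 in valve interstitial-like cells, -0.76), with no doublet removal (Hey1 in stromal fibroblast-like cells, -0.67, and Hey1 in valve endothelial-like cells, -0.78, while Jag1 there did not pass) and with male-type mutant against female-type control cells (Heyl in valve interstitial-like cells, -0.72), an alternative chosen after seeing the data. The 1 lower pair was another one with female-type cells only (Jag1 in valve interstitial-like cells, -0.68) and with classes from marker counts per cell (Dll4 in valve endothelial-like cells, -0.73). Other pathway pairs apart numbered 6, and 10 with no doublet removal, at resolution 1.5, with the Notch genes left in the clustering and with female-type cells only, 18 with thinned cells, 15 with male-type against female-type cells, 13 at a minimum of 5 CPM and 55 with no minimum. In the main setting between 32 and 38 of the 51 genes were measured per class. Shares of all genes apart under the alternatives are not given here, so changes in these counts are not read as a result. Over all genes, gene and class pairs 2-fold apart at 50 CPM numbered 114, and 696 at 10 CPM and 589 at 1.5-fold. These last counts rise by the rule itself, since each looser cutoff includes the pairs of the stricter one. The cause of the changes between the alternatives was not tested. Depth limits members under 10 CPM, for which no ratio is read. No paired analysis was possible because each genotype has 1 library.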

Other observations

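Unnamed clusters also held members of the set. Unnamed cells led by Meg3 and Rian, at a median of 1511 UMIs in 201 mutant and 1223 UMIs in 126 control cells, held 293 CPM of Notch3 in the mutant and 162 CPM in the control library, a log2 ratio of 0.84 (0.23 to 1.53). Unnamed cells led by Vwf and Procr held 111 CPM of Jag1 in the mutant and 124 CPM in the control library and 197 and 182 CPM of Notch1, with no Hey1 UMI in 41 mutant and 81 control cells. At the finer clustering, 99 mutant and 61 control cells of low depth, at 1426 and 1227 UMIs, were left unnamed because of leading genes of another class, with the mast cell genes Cma1, Tpsb2 and Cpa3 among them beside Jag2 and Notch4. They held 401 and 339 CPM of Jag2, 144 and 124 CPM of Dll4, and 326 and 158 CPM of Notch4, for which the log2 ratio was 1.01 (0.17 to 2.01). The part of the mast cell signal in that ratio was not tested. Whether these cells were counted in the arterial endothelial-like class of the main clustering was not tested either. That class had median depths of 3725.5 mutant and 3039 control UMIs, against 6128 and 4140 in arterial endothelial-like cells of the finer clustering. The mean log2 level of mast cell markers over the median cluster was 1.70 in the main and 0.29 in the finer arterial cluster.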
